A study of Mus musculus with 28 samples.

Results

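The genes described here are 8 neighbours of Adipoq on mouse chromosome 16, namely Fetub, Hrg, Kng2, Kng1, Eif4a2, Rfc4, St6gal1 and Masp1, out of 55891 gene identifiers in the largest deposited table. They flank Adipoq, the gene of the fat cell hormone adiponectin, and were chosen by position and by the Rfc4 values of these same tables, which were already known to be higher in fat of Fgf13 knockout mice than in control fat. The choice therefore used the knockout against control difference, and that difference is given below as a description without a p-value. RNA-seq was run on whole adipose tissue of control mice (genotype WT) and of mice with Fgf13, a fibroblast growth factor homologous factor, knocked out in adipose tissue. Epididymal (ieWAT) and subcutaneous (isWAT) white fat came from an inducible knockout, and another subcutaneous set (sWAT) and brown fat (BAT) from a constitutive one. These mice, controls included, were obese, with 20 weeks of high fat feeding. For the remaining set of epididymal fat, eWAT, the sources used here give neither the kind of knockout nor the diet. Each set had 3 control libraries. The isWAT and BAT sets had 2 knockout libraries and the others 3. The sources used here do not give strain, sex, age, pooling of animals, the Cre driver or whether the controls carried Cre. The labels do not tie libraries to single animals, so the spread below may be partly technical.

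Fgf13 served as the check of the labels. It was lower in the knockout than in the control libraries without overlap in ieWAT, isWAT, sWAT and BAT, with log2 changes of -0.70, -0.83, -0.83 and -2.13. In eWAT it was 20.3 ± 7.39 FPKM in controls and 22.6 ± 4.76 FPKM in the libraries labelled knockout (SD, n = 3 each), and the groups overlapped, so the eWAT groups are called here by their labels only. Adipocyte markers were high in every set, and brown adipocyte markers summed to between 7499 and 10233 CPM (reads per 1000000 reads of the library, not divided by gene length) in BAT against 21.7 to 84.1 CPM in ieWAT, isWAT and sWAT. The recovered depth of a library lay between 29857189 and 43624353 reads for ieWAT, between 37700750 and 48812592 for isWAT, between 13490948 and 21241811 for sWAT and between 14951333 and 21246286 for BAT. It is unknown for eWAT, whose values are FPKM (divided by gene length). BAT control 3 stood apart, with 1353 CPM of hepatocyte marker transcripts. The BAT groups also differed in other cell markers. Macrophage sums were 96.8 to 98.0 CPM in knockouts against 232 to 992 CPM in controls, and fibroblast sums 279 to 417 against 489 to 1721 CPM. Endothelial, B cell and T cell sums were likewise lower without overlap, and skeletal muscle sums ran from 0.80 to 4559 CPM in the knockout libraries. The part of these markers in the BAT changes below was not tested. In BAT the median change of all 13253 genes tested was -0.18 on the log2 scale, and it moved to 0.0031 after trimmed-mean (TMM) scaling, so BAT changes are to be read against that shift.

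The stretch of chromosome 16 around Adipoq holds genes of unrelated function. Fetub, Hrg, Kng2 and Kng1 belong to a cluster of cystatin-fold plasma proteins made mainly by the liver. Rfc4 encodes a small subunit of replication factor C, the clamp loader that places the PCNA ring on DNA. Eif4a2 encodes an RNA helicase of the eIF4A family that acts in translation, and St6gal1 a sialyltransferase of the Golgi. Masp1 encodes a protease of the lectin pathway of complement. Transgenes built from large genomic clones around Adipoq are a common way to drive Cre in fat cells, and such clones can carry copies of neighbouring genes. The labels name no such transgene here, and no DNA copy number was measured, so any part of extra gene copies in the values below was not tested.

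On GRCm38 (GENCODE M21) the genes lie in the order Fetub (22918334 to 22939778, plus strand), Hrg (22951072 to 22961656, plus), Kng2 (22985854 to 23029482, minus), Kng1 (23057865 to 23082078, plus), Eif4a2 (23107444 to 23114136, plus), Rfc4 (23113943 to 23127737, minus), Adipoq (23146536 to 23158028, plus), St6gal1 (23224740 to 23360350, plus) and Masp1 (23449417 to 23520815, minus). Together they span 602.482 kb. The Rfc4 start is 18.8 kb from that of Adipoq, and Rfc4 and Eif4a2 run towards each other so that their 3′ ends overlap by 194 bases. Of the 31-base words of Rfc4 transcripts, 10.5% lie on the opposite strand of Eif4a2 transcripts, and 2.93% of the words of Eif4a2 lie opposite Rfc4. No source used here says whether the reads kept their strand, so reads from the shared end could count for either gene. Kng2 and Kng1 are near-identical copies in part: 30.6% of the words of Kng2 are also in Kng1, and 26.5% of those of Kng1 in Kng2, so reads between them are uncertain.

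The upstream sequences of the pair nearest Adipoq are shown beside that of Adipoq because these genes share a neighbourhood but have promoters of different make-up. Each run is the 250 bases before the RefSeq start (GRCm38.p6), 5′ to 3′ on the strand of the gene, and capitals mark matches on either strand to the 6 motifs spelled out after them.
Rfc4, chr16:23127731-23127980, minus strand: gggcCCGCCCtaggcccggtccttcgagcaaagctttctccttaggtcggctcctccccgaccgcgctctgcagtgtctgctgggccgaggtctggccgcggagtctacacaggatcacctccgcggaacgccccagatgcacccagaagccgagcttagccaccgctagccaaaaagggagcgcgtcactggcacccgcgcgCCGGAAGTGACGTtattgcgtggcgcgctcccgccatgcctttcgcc
Eif4a2, chr16:23107218-23107467, plus strand: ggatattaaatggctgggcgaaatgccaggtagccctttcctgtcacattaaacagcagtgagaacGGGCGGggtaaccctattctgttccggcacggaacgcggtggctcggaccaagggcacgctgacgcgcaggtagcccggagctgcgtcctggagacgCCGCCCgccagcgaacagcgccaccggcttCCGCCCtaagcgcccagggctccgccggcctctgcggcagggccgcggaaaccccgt
Adipoq, chr16:23146286-23146535, plus strand: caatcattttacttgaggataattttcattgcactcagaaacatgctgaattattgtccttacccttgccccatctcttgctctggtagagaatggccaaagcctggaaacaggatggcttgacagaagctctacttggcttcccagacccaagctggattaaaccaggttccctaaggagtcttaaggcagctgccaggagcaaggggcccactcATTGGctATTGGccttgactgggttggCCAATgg

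The Rfc4 and Eif4a2 windows each held 27 CpG dinucleotides, and the Adipoq window held 0, beside a median of 6 over 32851 promoter windows of the same length. Rfc4 had 1 match to the core of ETS factor sites, CCGGAAGT, which starts 47 bases before the gene start and was in 2.88% of all windows. Its last base is the first of a match to part of the cyclic AMP response element, TGACGT, found in 6.47% of windows. The GC box, GGGCGG, matched 1 time in the Rfc4 window and 3 times in the Eif4a2 window and was in 32.7% of windows. The CCAAT box, CCAAT, matched 3 times in the Adipoq window and was in 33.9% of windows. The TATA box, TATAAA, in 12.4% of windows, and an E2F site, TTTCCCGC, in 0.895%, matched in none of the 3. These matches describe letters and are not evidence of binding.

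Rfc4 was higher in knockout than in control libraries, by group mean, in all 5 sets, and the groups did not overlap in the 4 white fat sets. In ieWAT its level was 6.35, 5.53 and 6.37 CPM in controls and 9.82, 8.51 and 12.2 CPM in knockouts. In isWAT it was 4.34, 4.09 and 5.20 CPM against 9.28 and 8.60 CPM, which was the largest ratio of the 5 sets at 1.97. In sWAT it was 7.25, 5.78 and 6.12 CPM against 9.20, 9.56 and 9.43 CPM. Every knockout library of these 3 sets lay above every control library of its own set, and the sWAT knockout libraries lay closest together. In eWAT Rfc4 was 7.62, 6.80 and 7.60 FPKM in controls and 12.3, 10.1 and 11.2 FPKM in the libraries labelled knockout, again without overlap. In BAT it was 5.22, 6.90 and 8.08 CPM in controls and 8.31 and 7.62 CPM in knockouts. There the groups overlapped, because BAT control 3, the library rich in liver transcripts, lay between the knockout libraries.

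Expressed as log2 changes on the log2(value + 1) scale, the Rfc4 differences ranked as follows: isWAT 0.85 (SE 0.13), ieWAT 0.65 (SE 0.17), eWAT 0.55 (SE 0.096), sWAT 0.50 (SE 0.12) and BAT 0.23 (SE 0.20). In this order no value differs from the next by more than the sum of their standard errors. The difference between group means was 4.39 CPM (SE 0.481) for isWAT, 4.10 CPM (SE 1.12) for ieWAT, 3.01 CPM (SE 0.456) for sWAT and 1.23 CPM (SE 0.895) for BAT. The BAT change was 0.41 (SE 0.18) after TMM scaling, and the BAT groups then no longer overlapped. Leaving out BAT control 3 gave 0.35, also without overlap, while leaving out BAT control 1, the lowest, gave 0.08 (SE 0.19) with overlap. Read support was moderate, from 78 reads in sWAT control 2 to 533 reads in ieWAT knockout 3. A second deposited table under the same eWAT library labels, in TPM, gave Rfc4 values of 2.94, 14.1 and 1.64 TPM in controls and 2.64, 3.16 and 9.27 TPM in those labelled knockout. In that table the groups overlapped and the change was -0.0042 (SE 1.18), so the eWAT value rests on which table is read.

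**Figure D1:**
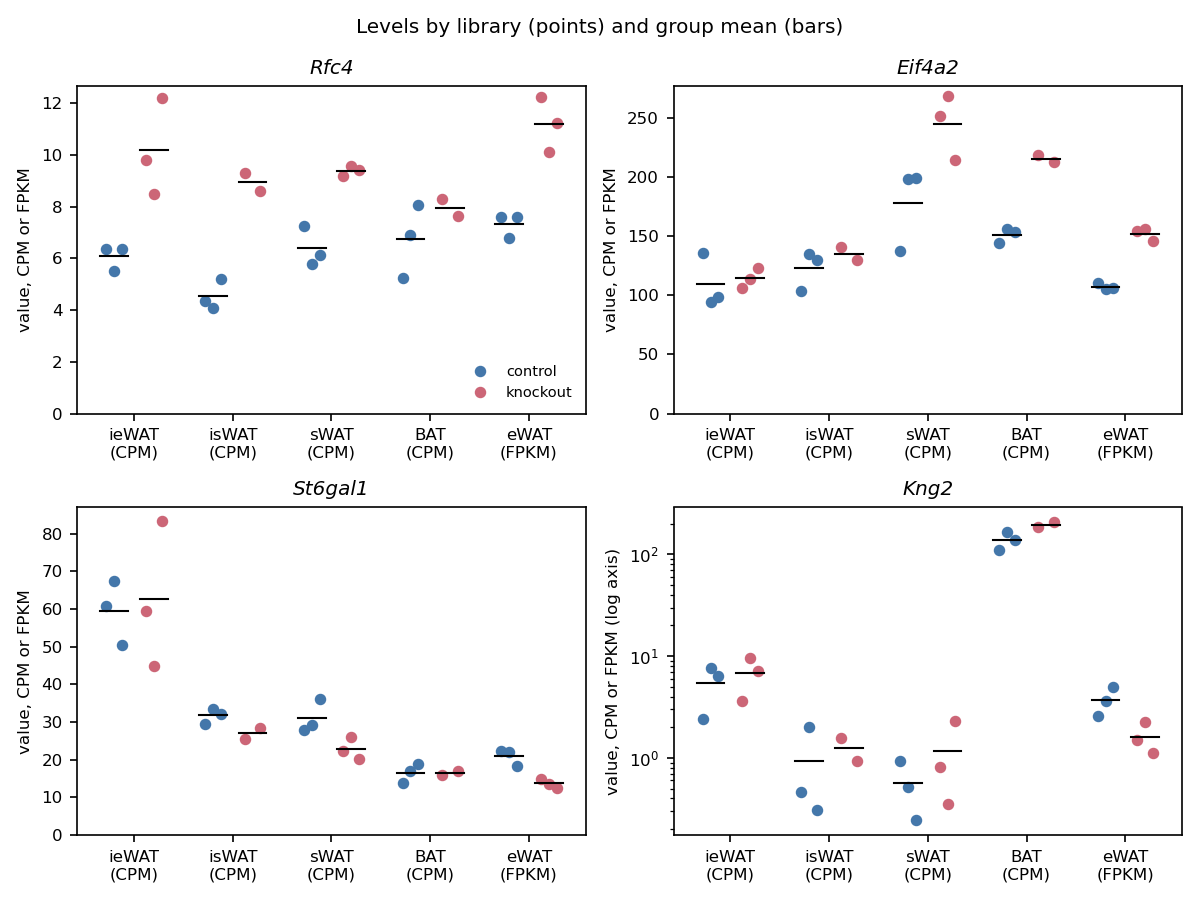
Level of Rfc4, Eif4a2, St6gal1 and Kng2 in each library (points) with group means (black bars) for the 5 sets, in CPM for ieWAT, isWAT, sWAT and BAT and in FPKM for eWAT. Kng2 is on a log axis. Rfc4 knockout points lie above all control points in the 4 white fat sets and overlap them in BAT, and Kng2 is above 100 CPM in BAT only.

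Of 12693 genes tested in the 4 white fat sets, 2 lay higher in the knockout libraries without overlap in all of them, Rfc4 and Commd1, a member of the COMMD family named here after its values were seen. In all 5 sets, 0 of 12149 genes did. The share of genes that were higher without overlap in each set alone was 3.43% for ieWAT, 12.2% for isWAT, 3.8% for sWAT, 6.37% for BAT and 21.6% for eWAT, and the share that were lower was 1.68%, 19.4%, 12.3%, 38.1% and 19.6%. Among the 8 listed genes the numbers higher without overlap were 1, 1, 2, 2 and 2, and the numbers lower were 0, 1, 1, 0 and 3, in the same order of sets. Those that passed the filter on low values (at 1 CPM or FPKM or more in a number of libraries equal to the smaller group) numbered 8, 8, 4, 6 and 4. Since the list was made with this contrast known, nothing is read from these counts.

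None of the other clamp loader subunits was higher without overlap in any set. Of all genes, 3.43%, 12.2%, 3.8%, 6.37% and 21.6% were in ieWAT, isWAT, sWAT, BAT and eWAT. With so few subunits, nothing is read from that absence. Rfc2, Rfc3 and Rfc5 are the remaining small subunits and Rfc1 the large one. Rfc1 overlapped in all white sets and lay lower without overlap in BAT (30.0 ± 2.62 against 24.3 ± 1.80 CPM, SD, n = 3 and 2). The Rfc2 changes ran from -0.27 (BAT) to 0.07 (isWAT), and the groups overlapped except in BAT, where Rfc2 lay lower. Rfc3 was 0.23 (SE 0.15) in ieWAT with overlap and -0.26 (SE 0.12) in sWAT, lower without overlap. Rfc5 overlapped in all white sets and lay lower in BAT, at 3.84 ± 1.12 CPM (SD, n = 3) against 2.60 ± 0.0171 CPM (SD, n = 2). Pcna, the ring that the complex loads, lay lower without overlap in sWAT, BAT and eWAT, with changes of -0.18, -0.56 and -0.50. In BAT the Rfc1, Rfc2, Rfc5 and Pcna values include the shift of all genes given above. Of all genes tested, 12.3% in sWAT, 38.1% in BAT and 19.6% in eWAT lay lower without overlap.

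The wider list of replication genes, 26 in all with Rfc4 left out, had 24 to 26 members tested in each set. By limma with Benjamini-Hochberg adjustment over all genes, 0 of them were called in any set, where the share of all genes called higher was 0% for ieWAT, 0.00701% for isWAT, 0.0217% for sWAT, 0.00755% for BAT and 10.2% for eWAT, and the share called lower was 0% in the first 4 sets and 4.7% in eWAT. At an unadjusted p under 0.05, 0, 0, 4, 5 and 4 of them were lower and 0 were higher in any set. Of all genes, 0.617%, 9.13%, 7.72%, 16.8% and 15% were lower at that threshold and 2%, 3.98%, 1.93%, 2.32% and 18.9% were higher. In either direction the shares were 2.62%, 13.1%, 9.66%, 19.2% and 33.9%, and the unadjusted counts of the lists below are to be read against these. On recovered reads edgeR called 0 and DESeq2 called 1, lower, in BAT. The list median change was -0.02, 0.06, -0.15, -0.41 and -0.08, beside 0.02, -0.03, -0.05, -0.18 and -0.02 for all genes. Cycling cell markers (5 genes) summed to overlapping ranges in ieWAT, isWAT and sWAT, and to lower ones in the knockout libraries of BAT (5.48 to 7.20 against 10.9 to 31.8 CPM) and in those labelled knockout of eWAT (64.1 to 76.7 against 79.6 to 88.6 FPKM). Their part in the Rfc4 values was not tested, and in whole tissue fewer cells of a type and less RNA per cell cannot be told apart.

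**Figure D2:**
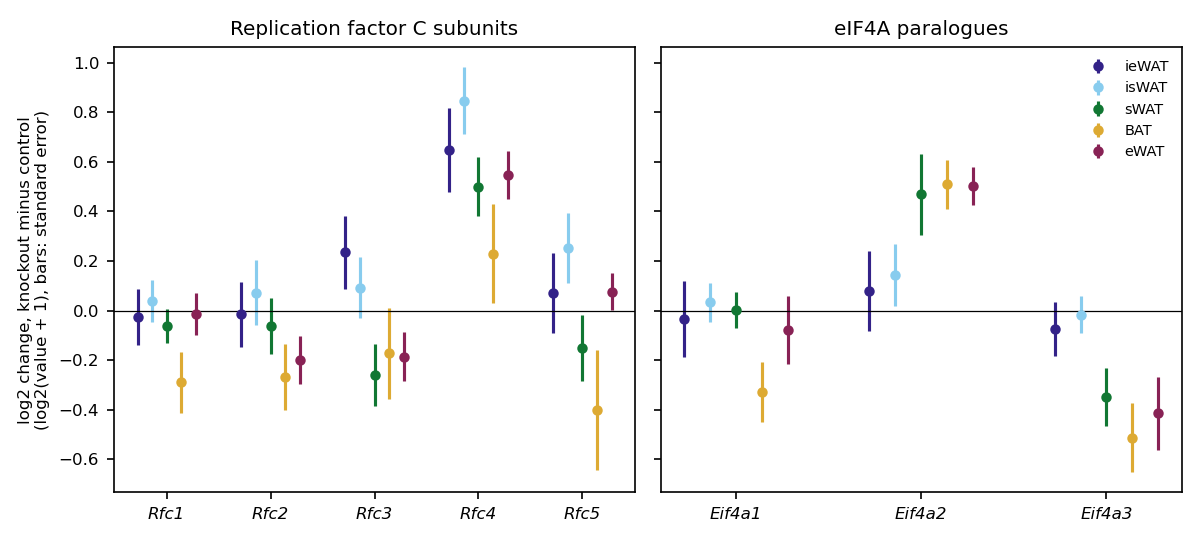
Log2 change, knockout minus control, with its standard error (bars) for replication factor C subunits (left) and eIF4A paralogues (right), one point per set. Rfc4 is above 0 in each set and reaches 0.85 in isWAT, and Eif4a2 is near 0.5 in sWAT, BAT and eWAT.

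Eif4a2, which ends inside the Rfc4 transcript, had another pattern over the sets. In sWAT its level was 137, 199 and 199.6 CPM in controls and 252, 269 and 214 CPM in knockouts. In BAT it was 144, 156 and 153 CPM against 219 and 213 CPM, and in eWAT 111, 105 and 106 FPKM against 155, 156 and 146 FPKM. In these 3 sets the groups did not overlap, with changes of 0.47 (SE 0.16), 0.51 (SE 0.099) and 0.50 (SE 0.078). Without control 1 the sWAT change was 0.29. In ieWAT the values were 136, 94.1 and 98.3 CPM against 106, 114 and 123 CPM, and in isWAT 103.6, 135 and 130.1 CPM against 141 and 129.6 CPM. Both overlapped, with changes of 0.08 (SE 0.16) and 0.14 (SE 0.13). The sets in which Eif4a2 differed least, ieWAT and isWAT, are by point value those in which the Rfc4 change was largest. That order is not resolved, since Rfc4 changed by 0.65 (SE 0.17) in ieWAT and by 0.55 (SE 0.096) in eWAT, which is in FPKM.

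In CPM the Eif4a2 means differed by 66.3 in sWAT and 64.5 in BAT, and those of Rfc4 by 3.01 and 1.23. Without overlap in sWAT, BAT and eWAT together, 32 of 12187 genes lay higher, Eif4a2 among them. TMM scaling of BAT raised the Eif4a2 change there to 0.71 (SE 0.12). The second eWAT table gave -0.09 (SE 1.64). The paralogue Eif4a1, which overlapped in ieWAT, isWAT, sWAT and eWAT, was lower in BAT (334 ± 33.5 CPM, n = 3, against 265 ± 6.27 CPM, n = 2, SD). Eif4a3, the paralogue of the exon junction complex, lay lower without overlap in sWAT (-0.35, SE 0.12) and BAT (-0.51, SE 0.14). Of all genes tested, 12.3% in sWAT and 38.1% in BAT likewise lay lower without overlap. The BAT values of both paralogues include the shift of all genes given above. Per kilobase of exon, control Eif4a2 was at 20.5 CPM in ieWAT, 33.4 in sWAT and 28.3 in BAT, and control Eif4a1 was at 116, 119 and 77.0 CPM.

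Of 15 partners of Eif4a2 in cap-dependent translation, all 15 were tested in each set. By limma 0 were called in ieWAT, isWAT, sWAT and BAT, where 0, 1, 1 and 4 had an unadjusted p under 0.05, the 4 in BAT beside 19.2% of all genes. On recovered reads of these sets edgeR called 0, and DESeq2 called 1, higher, in BAT. In eWAT 3 were called, beside 14.9% of all genes in either direction. Eif4g1, the scaffold of the cap-binding complex, rose by 0.39 (adjusted p = 0.0474, limma) in the libraries labelled knockout, and Eif4ebp1, an inhibitor of the cap-binding protein, rose by 0.85 (adjusted p = 0.0427, limma). Eif4b, a cofactor of the helicase, fell by 0.27 (adjusted p = 0.0479, limma). The eWAT calls of the gene lists, 9 in all, were 2 without the filter on low values, 0 in the TPM table and 0 with the replicate number as a block. With 1 library left out they were 0 (without the library labelled knockout 3) to 6. The eWAT groups also differed in cell markers: all 9 adipocyte markers and all 5 endothelial markers were higher and all 5 macrophage markers lower in those labelled knockout, with adipocyte sums of 17911 to 22584 against 7509 to 9709 FPKM. The part of these markers in the eWAT values was not tested.

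St6gal1, on the other side of Adipoq, was lower in knockout libraries in 3 of the 5 sets. In isWAT it was 29.6, 33.5 and 32.2 CPM in controls and 25.6 and 28.5 CPM in knockouts, a change of -0.22 (SE 0.095). In sWAT it was 27.8, 29.1 and 36.2 CPM against 22.3, 26.0 and 20.1 CPM, a change of -0.43 (SE 0.13). In eWAT it was 22.3, 22.0 and 18.4 FPKM against 15.0, 13.7 and 12.5 FPKM, a change of -0.57 (SE 0.11). None of these 3 pairs of groups overlapped. Of all genes tested, 19.4%, 12.3% and 19.6% likewise lay lower without overlap in isWAT, sWAT and eWAT. In ieWAT the values were 60.9, 67.3 and 50.4 CPM against 59.5, 44.9 and 83.4 CPM, and the 3 knockout libraries spread over the whole range. In BAT they were 13.8, 16.9 and 19.0 CPM against 15.9 and 16.9 CPM.

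The BAT change of St6gal1 was -0.0009 as deposited and 0.19 (SE 0.14) after TMM scaling, higher without overlap. In the second eWAT table its change was 0.90 (SE 1.49), opposite in sign to the FPKM value. Endothelial marker sums were lower without overlap in the knockout libraries of isWAT (1519 to 1590 against 1759 to 1935 CPM) and sWAT (845 to 1093 against 1134 to 1145 CPM), where St6gal1 was lower too. They were also lower without overlap in BAT (654 to 659 against 697 to 830 CPM), where the St6gal1 groups overlapped, and higher in eWAT, where it was lower. In ieWAT, where St6gal1 overlapped, B cell and plasma cell markers summed to 3385 to 5543 CPM in knockouts and 1191 to 2342 CPM in controls. The part of either marker list in St6gal1 was not tested. St6gal1 differed from Rfc4 and Eif4a2 in sign in isWAT, sWAT and eWAT. That contrast holds for these 3 genes and not for the 2 sides of Adipoq as a whole, since Kng2, on the left, was lower in eWAT and Masp1, on the right, had a change of 0.22 (SE 0.20, overlapping) in sWAT.

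Of 17 other genes of sialylation, 15 were tested in each set, and limma called 0 in ieWAT, isWAT, sWAT and BAT, with 0, 3, 4 and 3 at an unadjusted p under 0.05 beside 2.62%, 13.1%, 9.66% and 19.2% of all genes. There edgeR and DESeq2 called 0. In eWAT 3 of the 15 were called, beside 14.9% of all genes in either direction. There St3gal3 rose by 0.73 (adjusted p = 0.0122, limma) in the libraries labelled knockout. St3gal1 fell by 0.44 (adjusted p = 0.0460, limma), and St6galnac4 fell by 0.60 (adjusted p = 0.0478, limma). All 3 encode sialyltransferases that use other linkages or acceptors than ST6GAL1.

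**Figure D3:**
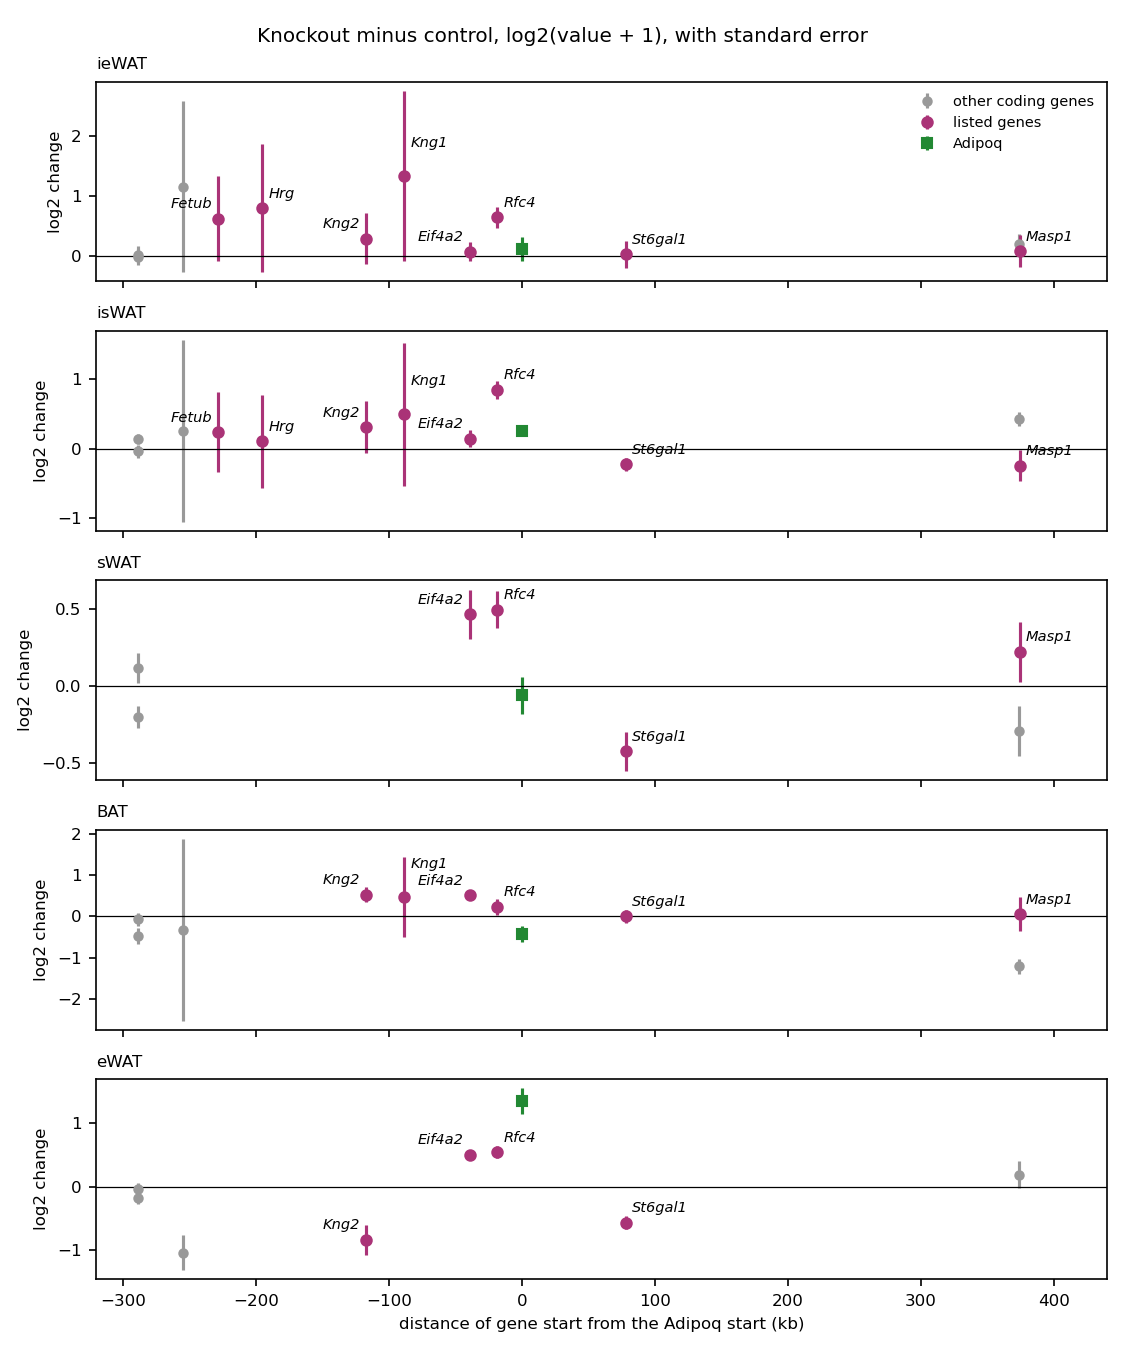
Log2 change, knockout minus control, with its standard error (bars) against the distance of each gene start from the Adipoq start in kb, 1 panel per set. Purple points are the listed genes that passed the filter, the green square is Adipoq and grey points are other protein-coding genes. Rfc4 lies above St6gal1 in each panel, and the points to the far left have wide bars in ieWAT and isWAT.

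Adipoq itself was higher without overlap in some, not all, of the sets in which Rfc4 was. In isWAT it was 2301, 2337 and 2302 CPM in controls and 2752 and 2785 CPM in knockouts, a change of 0.26 (SE 0.081) without overlap. Adipocyte marker sums were also higher there (30294 to 30335 against 27264 to 28729 CPM, with 3 of 9 markers higher and 2 lower without overlap), and endothelial and T cell sums lower. The part of these markers in the isWAT values of Adipoq and Rfc4 was not tested. In eWAT it was 687, 614 and 412 FPKM against 1294, 1468 and 1530.2 FPKM, a change of 1.35 (SE 0.20). In ieWAT, sWAT and BAT the groups overlapped, with changes of 0.12 (SE 0.19), -0.06 (SE 0.12) and -0.43 (SE 0.19). In ieWAT and sWAT Rfc4 was thus higher without overlap while Adipoq was not, and in isWAT and eWAT both were.

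Noncoding genes of the same stretch were looked at after their values were seen. B630019A10Rik is an antisense-class RNA gene that ends just before the St6gal1 start (23175280 to 23224446, plus strand). It was 0.332, 1.11 and 1.15 CPM in ieWAT controls and 1.89, 4.52 and 1.83 CPM in knockouts, from 13 to 135 reads. Its ratio of knockout to control means was 3.18 in ieWAT, 2.96 in isWAT, 1.57 in sWAT and 3.01 in eWAT, without overlap in each, and 0.487 in BAT with overlap. Of all genes tested, 3.43%, 12.2%, 3.8% and 21.6% were higher without overlap in these 4 white fat sets. In sWAT (4 to 13 reads per library) and eWAT B630019A10Rik was below the filter on low values. It is therefore not among the 12693 genes counted above, and nothing is read from its non-overlap. In BAT, control 3 had 20 reads and the other libraries 2 to 4. 6330408M09Rik, which starts 56 bases from the Rfc4 start on the other strand, was higher without overlap in ieWAT (0.296 ± 0.0573 against 0.738 ± 0.318 CPM, SD, n = 3 each) and isWAT (0.30 ± 0.124 against 0.615 ± 0.0816 CPM, SD, n = 3 and 2). It overlapped in the other 3 sets. Its counts were 33 reads or fewer per library. Another noncoding gene, BC106179 (23220656 to 23225484, minus strand), did not go the same way. It overlapped in ieWAT, isWAT, sWAT and BAT, with ratios of 1.07, 1.03, 0.902 and 1.32. In eWAT BC106179 was lower without overlap (0.332 ± 0.0632 against 0.185 ± 0.0505 FPKM, SD, n = 3 each).

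Kng2, a kininogen gene, had its highest CPM in brown fat, though each table was scaled on its own. In BAT it was 109.9, 166 and 139 CPM in controls and 186 and 206 CPM in knockouts, without overlap, a change of 0.52 (SE 0.18), and of 0.72 (SE 0.21) after TMM scaling. In ieWAT the libraries held 2.40 to 9.65 CPM, in isWAT 0.307 to 2.03 CPM and in sWAT 0.245 to 2.33 CPM, and control and knockout overlapped in each. In eWAT it was 2.58, 3.61 and 4.98 FPKM in controls against 1.49, 2.25 and 1.11 FPKM in those labelled knockout, a change of -0.85 (SE 0.24) without overlap. Alb, the albumin transcript of hepatocytes, ranged from 3.34 to 806 CPM over the BAT libraries, and Kng2 per 1000 Alb varied 238-fold, so Kng2 did not track the liver transcripts in BAT.

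Kng1, the adjacent kininogen, was uneven between libraries, and per kilobase of exon its BAT control mean was 2.46 CPM against 50.7 CPM for Kng2. In ieWAT it was 0.179, 26.3 and 27.2 CPM in controls and 14.2, 51.0 and 17.6 CPM in knockouts. In isWAT it was 0.668, 8.68 and 1.62 CPM against 8.28 and 1.61 CPM, and in BAT 1.46, 4.01 and 18.5 CPM against 8.74 and 6.55 CPM. The groups overlapped in every set. In sWAT it was 3.91, 0.445 and 0.490 CPM in controls, with 10.1 CPM in knockout 3 and 0 reads in the other two knockout libraries, where 3 reads would be 0.162 and 0.209 CPM. In BAT libraries other than control 3, where Kng2 is abundant and Alb low, Kng1 reads cannot be told apart from misassigned Kng2 reads.

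Hrg and Fetub, the genes of histidine-rich glycoprotein and fetuin-B, varied from library to library with the albumin transcript, Hrg closely in ieWAT and isWAT and Fetub less so. In ieWAT Hrg was 0.153, 11.6 and 12.3 CPM in controls and 6.41, 17.4 and 6.56 CPM in knockouts, and Alb ranged 129-fold over the same libraries. The ratio of Hrg to Alb stayed between 11.1 and 15.1 per 1000 in ieWAT, between 9.94 and 15.6 in isWAT and between 8.59 and 15.8 in BAT, where Alb ranged 241-fold. In BAT Hrg had only 1, 3 and 132 reads in controls and 15 and 1 in knockouts, so its ratio is poorly resolved there. The Hrg ratio was less even in sWAT, at 4.15 in control 2, 0 in knockouts 1 and 2 and 9.03 to 12.4 in the rest, and in eWAT it ran from 0 to 27.1, both with low Hrg levels. Kng1 per 1000 Alb lay between 17.6 and 39.1 in ieWAT and between 19.7 and 44.2 in isWAT, but between 23.0 and 1307 in BAT. Fetub per 1000 Alb lay between 7.15 and 98.2 in ieWAT, the highest being control 1, which had the least Alb. Hrg and Fetub overlapped between groups in ieWAT, isWAT, sWAT and BAT. In ieWAT the 14 hepatocyte markers summed to 24.9 CPM in control 1 and to 985 CPM or more in each knockout library. The ieWAT changes of Kng1 (1.34, SE 1.42) and Hrg (0.80, SE 1.07) rest on that control: without it they were -0.18 and -0.36.

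**Figure D4:**
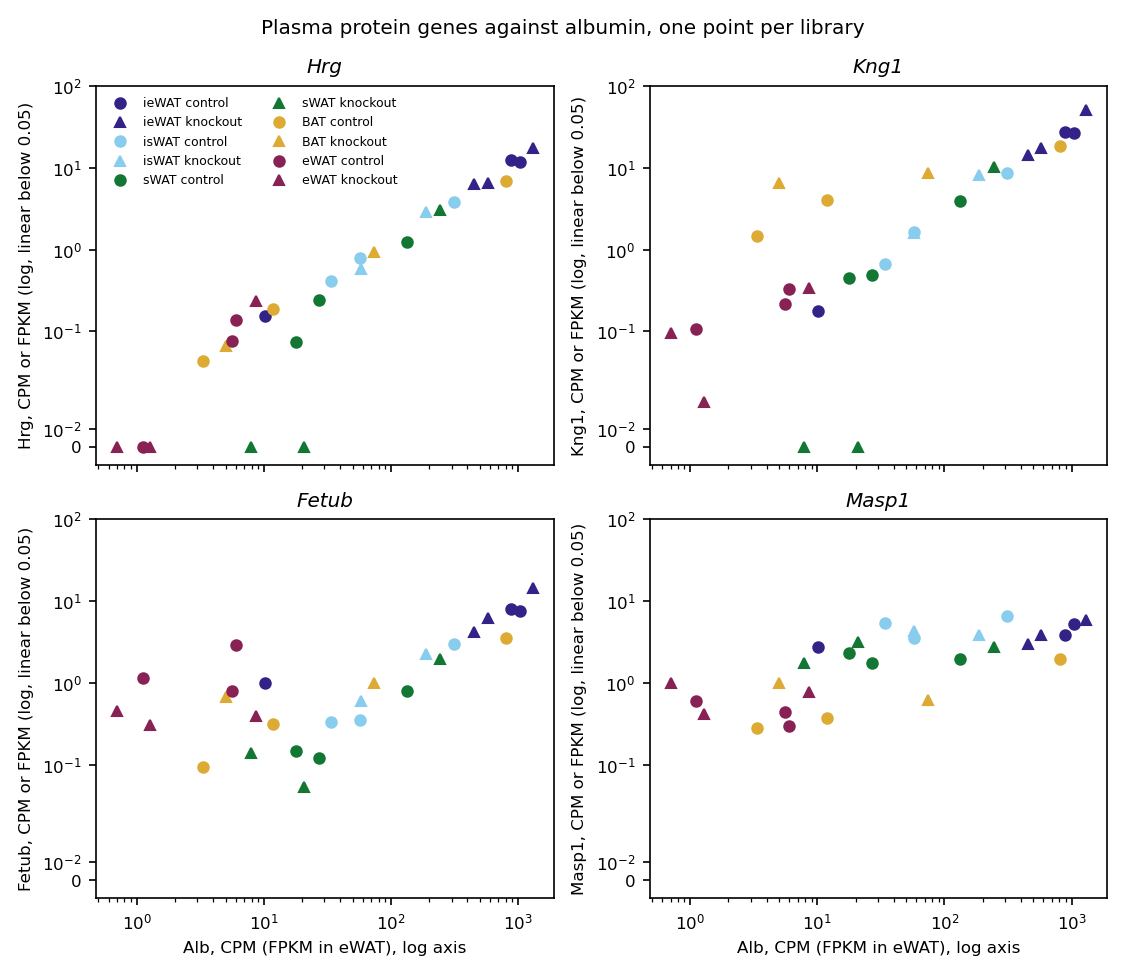
Hrg, Kng1, Fetub and Masp1 against Alb in each library, in CPM (FPKM in eWAT), on log axes (linear below 0.05 on the vertical axis), with circles for control and triangles for knockout. Hrg lies along 1 line with Alb over ieWAT, isWAT and BAT, but BAT control 1, control 2 and knockout 2 held 1, 3 and 1 Hrg reads. Kng1 leaves that line in BAT, and Masp1 stays between 2.73 and 5.89 CPM in ieWAT while Alb ranges 129-fold.

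In eWAT Fetub was 0.806, 1.15 and 2.93 FPKM in controls and 0.310, 0.453 and 0.390 FPKM in those labelled knockout, lower without overlap but below the filter on low values. Ahsg (fetuin-A), the next gene beyond Fetub, moved likewise there, from 4.44 ± 2.25 to 1.5 ± 0.264 FPKM (SD, n = 3 each), and fell by 1.05 (SE 0.28, adjusted p = 0.0488, limma). That call was lost after TMM scaling, without the filter, in the TPM table, with the replicate block and without any 1 of 4 of the 6 libraries (control 2 or one labelled knockout). Hepatocyte marker sums overlapped in eWAT (6.15 to 20.4 against 4.51 to 32.5 FPKM), and so did Hrg, which is listed at 0 in 3 of the 6 libraries. Over the 5 sets, then, the plasma protein genes to the left of Adipoq gave no common direction.

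Masp1, the outermost listed gene on the right, was low and overlapped in every set. It was 3.91 ± 1.24 against 4.25 ± 1.5 CPM in ieWAT (SD, n = 3 each), and 5.20 ± 1.57 against 4.11 ± 0.30 CPM in isWAT (SD, n = 3 and 2). In sWAT it was 2.02 ± 0.264 against 2.57 ± 0.744 CPM, and in eWAT 0.448 ± 0.154 against 0.731 ± 0.289 FPKM (SD, n = 3 each). In BAT it was 0.866 ± 0.931 against 0.809 ± 0.274 CPM (SD, n = 3 and 2), with 1.94 CPM in control 3. Its 5′ end overlaps that of Rtp4 by 525 bases on the other strand. Of 13 genes of lectin complement, 11, 11, 8 and 7 were tested in ieWAT, isWAT, sWAT and BAT. There limma called 0, with 1, 0, 0 and 2 at an unadjusted p under 0.05 (2.62%, 13.1%, 9.66% and 19.2% of all genes), and edgeR and DESeq2 called 0. In eWAT 8 were tested and 2 were called, both higher, beside 10.2% of all genes called higher. Cfd (adipsin, a protease of fat cells) rose by 1.89 (adjusted p = 0.0142, limma) and Cfb by 0.81 (adjusted p = 0.0302, limma). Cfd is also one of the adipocyte markers that were higher there.

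Of 11 kinin and contact system genes and 8 further cystatin-fold plasma proteins and partners, 9, 9, 5 and 6 of the first list and 5, 5, 2 and 4 of the second were tested in ieWAT, isWAT, sWAT and BAT. By limma 0 were called, with 1, 0, 2 and 3 at an unadjusted p under 0.05, beside 2.62%, 13.1%, 9.66% and 19.2% of all genes. There edgeR called 0, and DESeq2 called 1 in sWAT and 2 in BAT, all lower. In eWAT 3 of each list were tested. Ahsg was the single one called, beside 14.9% of all genes and with the limits given above.

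Other protein-coding genes within 1 Mb of the Adipoq start numbered 14, of which 8, 8, 7, 8 and 8 were tested. By limma 0 were called in ieWAT, isWAT, sWAT and BAT, with 0, 2, 3 and 2 at an unadjusted p under 0.05 (2.62%, 13.1%, 9.66% and 19.2% of all genes). On recovered reads edgeR called 0, and DESeq2 called 2 in isWAT (1 higher, 1 lower) and 1, lower, in BAT. In eWAT 1 was called, Ahsg, beside 14.9% of all genes. On the left, Dnajb11, a chaperone of the endoplasmic reticulum, was 55.6 ± 1.22 against 61.4 ± 2.38 CPM in isWAT (SD, n = 3 and 2), higher without overlap, and lay lower without overlap in sWAT (-0.20), BAT (-0.48) and eWAT (-0.18). On the right, Rtp4, an interferon-inducible gene, was higher without overlap in isWAT (0.43, SE 0.10) and lower in BAT (-1.21, SE 0.19). Bcl6, a transcriptional repressor, was lower without overlap in isWAT (-0.65, SE 0.16) and overlapped in the other sets. None of these genes was higher without overlap in all 4 white fat sets. Since only 2 of 12693 genes tested were, Rfc4 among them, nothing is read from that.

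Likeness of pattern was measured as Pearson's r over 28 libraries after each set's mean was subtracted, among 12148 genes, and includes the knockout difference itself. The genes most like Rfc4 were Sdhaf2 (r = 0.81), Esr1 (0.76), Commd3 (0.73), Aasdhppt (0.72) and Cebpzos (0.71). With the group means subtracted as well, these values were 0.63, 0.18, 0.59, 0.40 and 0.13, so the likeness of Esr1 and Cebpzos lay mostly in the contrast that chose Rfc4. Those most like Eif4a2 were Mrpl50 (0.78), mt-Atp6, Aspa and Acss3 (each 0.74) and Emc2 (0.72), with 0.41 to 0.61 within groups. Those most like St6gal1 included Nipal3 (0.85), Peli1 (0.84), Dcp1a (0.83) and Nfya (0.82), with 0.74 to 0.79 within groups. None of these most alike genes lies on chromosome 16. So few genes are named, and the share of all compared genes on that chromosome is not given, so nothing is read from that absence. Between Rfc4 and Eif4a2 r was 0.54, which put Eif4a2 at rank 116 of the genes most like Rfc4. Within groups r between them was 0.05, so no joint movement was seen there. No interval was computed for that r, so a moderate one is not excluded.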

How the data were processed

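Adipose RNA-seq libraries of control and Fgf13 knockout mice were compared within each set, because each table was normalized on its own. The ieWAT, isWAT, sWAT and BAT tables, as deposited, hold CPM: the authors scaled each library to 1000000 reads, as the column sums show although the tables are named FPKM. In them 100% of values gave whole reads within 0.01 reads. The authors deposited eWAT in FPKM, and a second eWAT table named raw counts holds TPM by its sums. A further table, a rescaled copy with 6 columns, was not used. Salmon, FastQC, MultiQC and DESeq2 1.38.3 are named, without roles, per the submitters' processing notes. The genome build, annotation and strandedness: not given in the sources used here. Symbols and positions came from GENCODE M21, matching 92% of identifiers (96% in ieWAT), and promoters from RefSeq (GRCm38.p6), with no entry used for Kng1 and Masp1.

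Values were tested as log2(value + 1) with limma 3.58.1 (R 4.3.3; trend, robust, two-sided), for genes at 1 or more in a number of libraries equal to the smaller group, with Benjamini-Hochberg adjustment over all genes at 0.05. This understates changes of low genes. Recovered reads were tested with edgeR 4.0.16 and DESeq2 1.42.0 as alternatives. The main limma fit, edgeR and DESeq2 were tried on simulated data, and the other alternatives were not. Groups did not overlap where all libraries of one lay above all of the other. The members and lists were chosen with earlier results of these data known, and motifs after the sequences were seen. Named genes are the 8 members, Fgf13, Adipoq, called neighbours and list genes, the nearest tested neighbours, paralogues and the 5 most alike genes, of which 1 is not reported here. Pcna, Rfc1, Commd1 and the noncoding genes were added after values were seen. Alternatives were scaling, filter, pseudocount (0.1, 0.5), replicate block, left-out libraries and a 2 Mb window.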

Additional observations from a re-analysis of the deposited data

Results flagged for a closer look

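Kng2 was higher in every BAT knockout library than in every BAT control, and lower in every eWAT library labelled knockout than in every eWAT control. The log2 changes, 0.52 in BAT and -0.85 in eWAT, differ by 1.36. The difference between the sets was not tested, the tables are in different units, and the eWAT labels did not go with lower Fgf13.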

How the results depend on the processing

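Rfc4 kept its sign in 66 of 67 alternatives. Its change moved beyond the spread between libraries in isWAT with edgeR (1.00) and DESeq2 (1.00), in BAT with edgeR (0.46) and in the eWAT TPM table (-0.0042). Changes by edgeR and DESeq2 are not on the log2(value + 1) scale of the main fit, which understates changes of low genes. In isWAT the plain ratio of knockout to control means was 1.97. The number of sets in which Rfc4 did not overlap, 4, became 5 after TMM or median-of-ratios scaling and 3 with the TPM table, and lay between 4 and 5 with 1 library left out. The other listed genes kept their sign in 298 of 331 alternatives.

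By limma the genes called in ieWAT, isWAT, sWAT, BAT and eWAT numbered 0, 1, 3, 1 and 2041. Without the filter they were 544 in eWAT, 7 in BAT, 5 in sWAT and 3 in isWAT. With a pseudocount of 0.1 they were 5 in sWAT and 0 in BAT. On recovered reads of the 4 CPM sets edgeR called 0, 1, 3 and 0, and DESeq2 called 32, 245, 85 and 691. The TPM table gave 1. With 1 library left out the ranges were 0 to 1 for ieWAT, 0 to 12 for isWAT, 1 to 120 for sWAT, 0 to 2201 for BAT (highest without control 2) and 12 to 1819 for eWAT (lowest without the library labelled knockout 3).

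Of the other genes near Adipoq, DESeq2 called 2 in isWAT and 1 in BAT. In eWAT the 1 called (Ahsg) was 0 after TMM scaling, without the filter and with the TPM table, and 2 were called in a 2 Mb window. With 1 library left out, 0 to 2 were called in BAT and 0 to 2 in eWAT. Of the genes in the 6 lists, DESeq2 called 1 in sWAT and 4 in BAT. The 9 called in eWAT became 2 without the filter and 0 with the TPM table. With 1 library left out, the numbers were 0 to 1 in sWAT, 0 to 14 in BAT and 0 to 6 in eWAT. These list alternatives were chosen after seeing the data.

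Replicate numbers share only a label: the correlations of same-numbered libraries ran from -0.56 to 0.39. With the replicate number as a block the genes called were 1, 7, 1, 0 and 0 in the 5 sets, 0 of the genes near Adipoq and 0 of the list genes were called in eWAT, and the Rfc4 changes were 0.65, 0.93, 0.50, 0.35 and 0.55. The best correlated number was the library's own only for replicate 1 of ieWAT and replicate 2 of BAT. Depth limits Kng1, Hrg and Fetub in sWAT, where single libraries held 0 to 2 reads. It also limits Hrg and Fetub in BAT, where control 1 held 1 and 2 reads of them. Depth is unknown in eWAT. The causes of these differences were not tested, other than the smaller number of libraries when 1 is left out.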
